A study of Mus musculus with 9 samples.

Results

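The 65 genes described here are named as replication-dependent histones, the H1, H2A, H2B, H3 and H4 proteins made in bulk when DNA is copied. They were taken from the 49672 rows of one table of gene-level TPM (a level scaled for transcript length and to the same total in every library) as the rows whose Ensembl identifiers belong to a protein-coding gene named Hist1h, Hist2h, Hist3h or Hist4h in the GENCODE M21 annotation. GENCODE M21 holds 67 such genes, and the other two, Hist1h2bm and Hist1h2bh, were not analysed here. The rule uses names only and no measured value, but it was chosen with earlier results of these data known. A name does not show that a member is made when DNA is copied. Testis histones and the H2B variant Hist2h2be are among the 65. The set holds 6 genes for H1, 18 for H2A, 16 for H2B, 12 for H3 and 13 for H4, of which 52 lie in the Hist1 cluster on chromosome 13, 10 in the Hist2 cluster on chromosome 3, 2 in Hist3 on chromosome 11 and 1, Hist4h4, on chromosome 6.

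Total RNA came from the epidermis of untreated Sox2-GFP reporter mice at postnatal day 0, sorted by flow cytometry into 2 cell types. GFP-positive cells are labelled Merkel cells, which sense light touch, and GFP-negative cells with SCA1 and CD49F on their surface are labelled basal keratinocytes. Sample numbers run from 1 to 3, and under each number there is a Merkel library, a first basal library and a second one, so that 3 groups of 3 libraries were compared. What sets a first basal library apart from a second is not said in the labels, nor whether a number is 1 animal, a litter or a pool, or which Sox2 sequence drives the GFP of the strain, which every library shares. What the p-values measure is thus only how far these libraries spread, which may be technical.

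Replication-dependent histone genes have no introns or few, lie in clusters, and are transcribed in S phase. Their mRNAs are unusual in ending at a short RNA hairpin, the histone stem-loop, in place of a poly(A) tail. The stem-loop is bound by SLBP, and the mRNAs are broken down when DNA synthesis stops. A total RNA library, which does not select for poly(A) tails, therefore keeps them. In newborn skin the basal layer holds the dividing keratinocytes, while mature Merkel cells are generally regarded as postmitotic. Some members, Hist1h1c and Hist1h2bc among them, are also known to be made with a poly(A) tail in cells that no longer divide.

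The stem-loop is the shared feature that sets these transcripts apart from other mRNAs, and a script searched for it in the GENCODE M21 transcript models (build GRCm38, the same as mm10) as the 8 bases CTTTTNAG with 4 bases on each side able to pair (G-T pairs included, at most 1 mismatch). It was found in 43 of the 65 genes, all but 1 of them with the arms typical of the family. The forms are shown because their arms divide the classes. Capitals mark the 8 central bases, which hold the loop and the innermost base pairs.
Hist2h2aa2: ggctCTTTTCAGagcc
Hist1h3c: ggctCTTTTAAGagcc
Hist2h2ac: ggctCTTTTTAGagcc
Hist1h4d: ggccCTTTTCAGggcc
Hist1h4i: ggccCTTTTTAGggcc
Hist1h4b: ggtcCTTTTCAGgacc
Hist1h2bc: aatgCTTTTAAGtgtt
All 11 H4 genes with a stem-loop carried the arms ggcc and ggcc (9 genes) or ggtc and gacc (2 genes), whereas 31 of the 32 genes of the other classes carried ggct and agcc. The form of Hist2h2aa2 was the most common, in 24 genes. The match in Hist1h2bc has arms of another sequence and lies in a transcript that runs 478 bases further, and it is given as a match of letters only. On the genome these elements lie at chr3:96239784-96239799 (minus strand, Hist2h2aa2), chr13:23745047-23745062 (minus, Hist1h3c), chr3:96220418-96220433 (minus, Hist2h2ac), chr13:23581950-23581965 (plus, Hist1h4d), chr13:22040966-22040981 (minus, Hist1h4i), chr13:23757366-23757381 (plus, Hist1h4b) and chr13:23692415-23692430 (plus, Hist1h2bc), each in an exon and within the annotated 3′ UTR.

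The annotated transcripts end in different places relative to this element. In 21 genes the model ended within 100 bases of the stem-loop, in 4 it ran on for 100 bases or more but under 200, and in 18 it ran 200 bases or more past it, up to 4884 bases for the linker histone Hist1h1d. In the other 22 genes the model held no stem-loop, often because it covers little more than the coding sequence (312 bases for Hist1h4k, with a coding length of 309). TPM divides by transcript length, so levels of different members depend on these annotated lengths. Fold changes of one member between libraries are free of this only if the length used was the same in every library, which is not known.

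Promoters were examined because members of a pair can share one and yet differ in level. RefSeq promoter windows (250 bases before to 50 after the start, build GRCm38.p6) were matched to 60 of the 65 genes, and in 59 of them the RefSeq start lay within 98 bases of the GENCODE start. On either strand, the CCAAT box (CCAAT) was found in 85% of these windows and in 37.4% of all 32851 windows in the table, the TATA box (TATAAA) in 58.3% and 13.6%, and the octamer (ATTTGCAT), known as the binding site of OCT1 at H2B genes, in 20% and 1.74%. The octamer was in 7 of 18 H2A and 5 of 14 H2B windows and in none of the H1, H3 or H4 windows, and the CCAAT box was in 3 of 12 H4 windows and in every window of the other classes. There were 12 divergent pairs with starts within 500 bases of each other, all of them an H2A and an H2B gene, so that many H2A and H2B windows overlap and are not separate observations. A match is a description of the letters in the window and not evidence of binding. The following stretches are shown with these motifs in capitals: the regions between the starts of the pairs Hist2h2ac and Hist2h2be and Hist1h2ae and Hist1h2bg, and the 250 bases upstream of Hist3h2ba and Hist1h4d, each 5′ to 3′ on the strand of the gene named.
Hist2h2ac: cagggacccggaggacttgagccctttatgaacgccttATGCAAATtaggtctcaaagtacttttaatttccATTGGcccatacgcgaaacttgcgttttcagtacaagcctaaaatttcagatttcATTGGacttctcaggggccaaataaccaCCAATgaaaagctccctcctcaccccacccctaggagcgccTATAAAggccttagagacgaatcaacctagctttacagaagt
Hist1h2bg: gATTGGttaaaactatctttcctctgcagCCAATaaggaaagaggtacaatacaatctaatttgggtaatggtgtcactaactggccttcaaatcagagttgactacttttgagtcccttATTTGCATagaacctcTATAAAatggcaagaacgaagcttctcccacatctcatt
Hist3h2ba: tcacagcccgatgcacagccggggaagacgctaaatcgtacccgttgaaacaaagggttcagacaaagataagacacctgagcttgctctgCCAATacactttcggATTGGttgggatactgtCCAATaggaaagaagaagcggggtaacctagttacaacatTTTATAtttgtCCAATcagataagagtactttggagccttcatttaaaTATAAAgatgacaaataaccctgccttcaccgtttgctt
Hist1h4d: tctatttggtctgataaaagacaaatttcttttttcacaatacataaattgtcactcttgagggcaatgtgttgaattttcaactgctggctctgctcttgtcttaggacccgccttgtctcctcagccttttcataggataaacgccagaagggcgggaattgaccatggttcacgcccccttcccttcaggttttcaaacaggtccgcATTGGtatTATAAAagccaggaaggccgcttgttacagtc
They lie at chr3:96220881-96221118 (minus strand), chr13:23571221-23571395 (plus), chr11:58948661-58948910 (plus) and chr13:23581318-23581567 (plus).

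The read depth behind the values is unknown, since TPM keeps none, and between 13012 and 13649 genes reached 1 TPM in a library. Merkel cell markers summed to 914 to 1220 TPM in Merkel libraries and to 2.41 to 6.05 in basal libraries. Basal keratinocyte markers summed to 12826 to 17317 TPM in basal libraries and still to 4539 to 5076 in Merkel libraries. The 8 suprabasal keratinocyte markers summed to 6198, 9091 and 4755 TPM in Merkel replicates 1 to 3. The same markers summed to 7295, 8814 and 4775 TPM in the first and 6567, 9174 and 5286 in the second basal libraries. First and second basal libraries differed in markers of other cell types. The 7 Langerhans cell and macrophage markers summed to 673 to 1030 TPM in the first and to 44.9 to 245 in the second, the 7 melanocyte markers to at most 34.7 and to 106 to 153, the 8 fibroblast markers to 44.9 to 112 and to 115 to 266, and the reporter transcript EGFP stood at 1.73 to 3.72 TPM in the first and 13.4 to 18.3 in the second. No marker of those 3 lists was at 0 in any library. By limma at an adjusted p under 0.05, 5 of the 7 Langerhans cell and macrophage markers were at least 2-fold lower in the second libraries. By the same test, 6 of the 7 melanocyte markers and 1 of the 4 fibroblast markers tested were at least 2-fold higher there. The 5 endothelial markers summed to at most 1.56 TPM in basal libraries, with Emcn at 0 in 7 of the 9 libraries. In Merkel libraries the melanocyte markers summed to 152 to 214 TPM, the fibroblast markers to 178 to 286 and the Langerhans cell and macrophage markers to 48.3 to 132. The part of these cells in the results below was not tested.

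The basal libraries of sample number 2 stood apart from the other 7 libraries in a way that touched several members. Counting rows in which both basal libraries of a number lay 2-fold beyond all of the other 7 libraries (on the log2(TPM + 1) scale), number 2 had 26, of which 16 were small or mitochondrial RNA genes and 8 pseudogenes, against 5 for number 1 and 3 for number 3. As shares of the summed histone TPM of a library, of the 57 members with a mean of 10 TPM or more, Hist1h2ah, Hist1h2bj and Hist1h2bp lay at least 1.5-fold above and Hist1h2ai, Hist2h2aa1 and Hist2h3c2 at least 1.5-fold below the other 4 basal libraries in both basal libraries of number 2, and no member did so for numbers 1 and 3.

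The clearest case was a pair of H2A genes with identical coding sequences, Hist2h2aa1 and Hist2h2aa2. Hist2h2aa1 was at 649, 580 and 758 TPM in Merkel replicates 1 to 3, at 594, 61.6 and 497 in the first basal libraries and at 756, 56.1 and 842 in the second. It thus made up 36.1% to 41.7% of the sum of the pair in 7 libraries and 4.16% and 3.30% in the first and second basal library of number 2. The sum of the pair did not stand apart there: it was 1661, 1392 and 1896 TPM in Merkel, 1508, 1482 and 1376 in the first and 2036, 1697 and 2313 in the second basal libraries. Such a share depends on how reads were divided between 2 genes with the same coding sequence. Whether this made the difference in number 2 was not tested. In all, 19 members fall into 6 groups whose coding sequences are 99% or more identical. Fold changes of single members of these groups are uncertain because of the division of reads, and the fold change of the summed group is given beside several of them below. Members outside the groups may be affected too. Hist1h2ah and Hist1h2bp, which also stood apart in number 2, are 97.9% and 98.4% identical to their closest member.

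**Figure D1:**
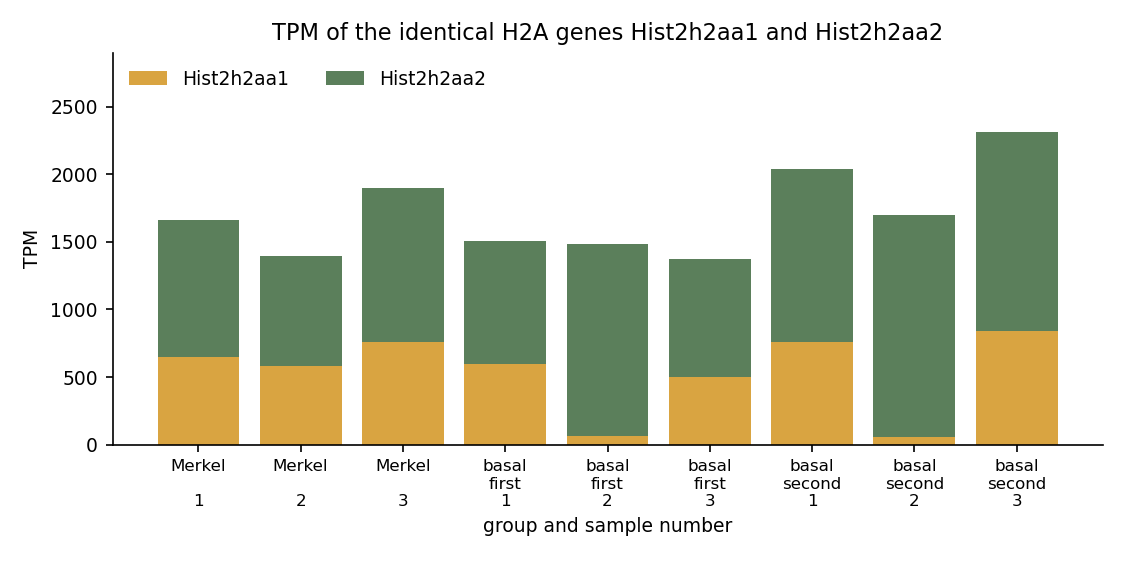
Stacked bars give the TPM of Hist2h2aa1 (lower part) and Hist2h2aa2 (upper part) in each of the 9 libraries, ordered by group and sample number. The lower part nearly vanishes in the first and second basal library of number 2 (61.6 and 56.1 TPM), while the total height of these bars, 1482 and 1697 TPM, stays within the range of the basal libraries (1376 to 2313).

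Histone transcripts were abundant in every library. Together the 65 genes reached 19431, 18315 and 23559 TPM in Merkel replicates 1 to 3, 19839, 22985 and 18343 TPM in the first basal libraries and 31841, 30050 and 33942 TPM in the second. The Merkel and first basal libraries overlapped, and the second basal libraries lay above both. As a share of all TPM this was 1.83% to 2.36% in Merkel, 1.83% to 2.30% in the first and 3.00% to 3.39% in the second basal libraries. Mitochondrial and small RNA genes took 40.6% to 53.4% of TPM, and with these removed the shares were 3.58% to 4.14%, 3.34% to 4.18% and 5.29% to 6.29%, with the same order of the groups. In bulk samples such as these, fewer dividing cells and less histone mRNA per cell cannot be told apart.

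Each of the 5 classes had a higher sum in every second basal library than in any first basal library, by a ratio of means of 1.44 for the linker histones H1, 1.59 for H2A, 1.60 for H2B, 1.58 for H3 and 1.56 for H4. The Merkel to first basal ratios were 1.03, 1.04, 0.967, 0.892 and 1.05 in the same order. H4 made up 26.4% to 29.7% of the summed TPM and H2A 22.9% to 25.6%. H2B made up 18.3% to 22.9%, H3 15.8% to 19.6% and H1 7.77% to 10.5%. The H3 share was 15.8%, 16.4% and 16.5% in Merkel and 17.7% to 19.6% in basal libraries, without overlap. The H2B share was 22.4% and 22.9% in the first and second basal library of number 2 and at most 19.8% in every other library. The H1 share was lowest in the same libraries of number 2, at 8.58% and 7.77%. The 10 most abundant members held 37.9% to 40.8% in every library.

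**Figure D2:**
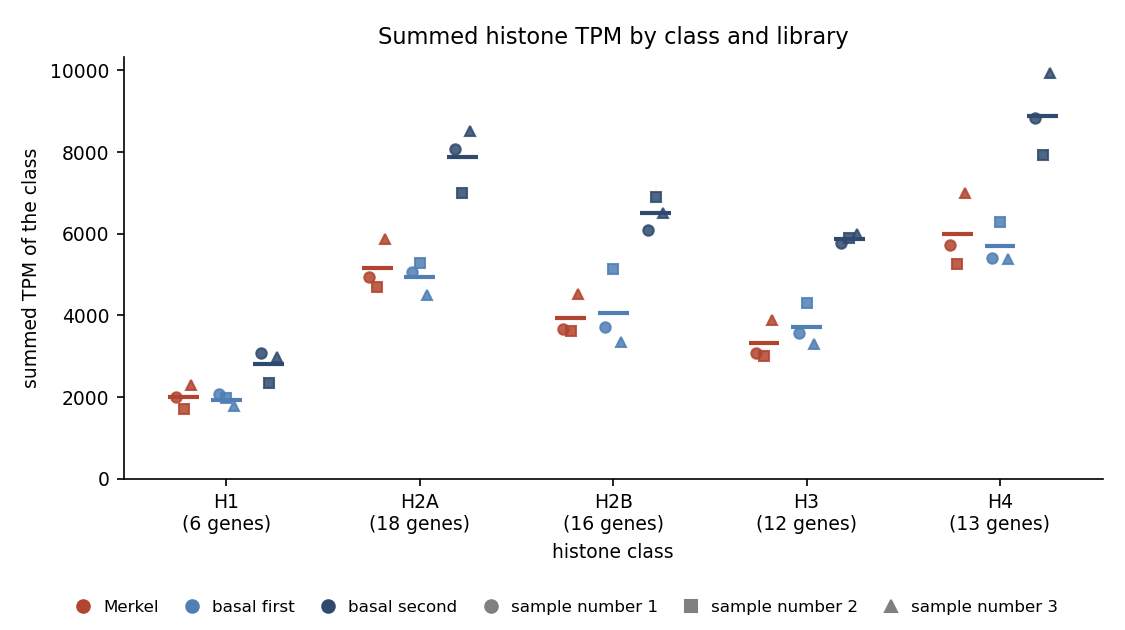
Points give the summed TPM of each histone class in each library, coloured by group, with the shape for the sample number and a line at the group mean. In every class the 3 second basal libraries lie above the 3 first basal libraries, and the Merkel libraries overlap the first basal libraries.

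Single members spanned a wide range of levels, with 48 at a mean of 100 TPM or more over the 9 libraries, 9 between 10 and 100 and 8 below 10. The lowest were the testis histones Hist1h2aa, at 0 in every library, and Hist1h2ba, at 0.27 TPM in 1 library and 0 in the rest, the H3 gene Hist2h3c1, at 0.79 TPM in 1 library and 0 in the rest, and the testis linker histone Hist1h1t, at 0.39 to 2.55 TPM. Among the 57 members with a mean of 10 TPM or more, the second basal mean was the highest of the 3 group means in 55. The exceptions were Hist1h1c and Hist2h2aa1, with the highest mean in Merkel cells. For Hist2h2aa1 this rests on number 2: its second basal libraries of numbers 1 and 3 were above the Merkel libraries of the same number, and the sum of the pair was highest in the second basal library of every number. The lowest mean was that of Merkel cells in 31 members and that of the first basal libraries in 26.

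Members were compared on log2(TPM + 1) with limma over all genes that reached 1 TPM in 3 or more of the 6 values compared, with p-values adjusted by Benjamini-Hochberg over all of them. A member is said to pass at an adjusted p under 0.05, and to be called where its fold change is also 2-fold or more. Of the 65 members, 62 were tested in each comparison except that of Merkel with first basal libraries, where 60 were. Hist1h2aa, Hist1h2ba and Hist2h3c1 were never tested. Where a member was below 1 TPM in every library of one group, it could be tested only because it was higher in the other, and its call supports nothing by itself. This holds for Hist1h1t between basal libraries and for Hist1h2bq against the second basal libraries and the basal average. Comparisons that share libraries (the Merkel or a set of basal libraries) are not independent of each other.

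The second basal libraries held more histone mRNA than the first. The median log2 fold change of the 62 tested members was 0.68, a ratio of 1.60, against 0.06 over all 13477 tested genes, and 61 of the 62 lay above 0, a share of 98.4% against 60.1% of all tested genes. 31 members passed as higher, a share of 50% where 3.37% of all tested genes did. None passed as lower by limma, at an adjusted or an unadjusted p under 0.05, where 4.82% of all tested genes passed. In 41 members all 3 second libraries lay above all 3 first libraries, a share of 66.1% against 17.3% of all tested genes, and in none did they lie below, against 10.1%. By class 3 of 6 H1, 9 of 17 H2A, 6 of 15 H2B, 7 of 11 H3 and 6 of 13 H4 genes passed, with Hist1h1t, below 1 TPM in every first library, counted among the H1 genes. The member below 0, on the side of 39.9% of all tested genes, was Hist2h2be, at -0.04.

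The change was of similar size in most members. By class the median log2 fold change was 0.59 for H1, 0.72 for H2A, 0.69 for H2B, 0.67 for H3 and 0.62 for H4. By transcript end it was 0.68 for the members that end within 100 bases of the stem-loop, 0.80, 0.62 and 0.68 for those that run on for under 200 bases, that run further or that hold none. Within the sample numbers the median of the members' differences was 0.72 for number 1, 0.42 for number 2 and 0.89 for number 3.

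The most abundant members show the size of this difference. Hist1h4d, an H4 gene and the most abundant member (mean 1355 TPM), was at 1039, 1077 and 1067 TPM in the first and 1736, 1515 and 2057 in the second basal libraries, without overlap, and its log2 fold change was 0.73 (± 0.14, the standard error, as in all fold changes below; adjusted p = 0.022). Its Merkel libraries, at 1176, 1022 and 1506 TPM, reached from the first libraries almost to the second. Hist1h4h, the next H4 gene, was at 867, 995 and 925 TPM in the first, 1461, 1270 and 1698 in the second and 955, 824 and 1122 in the Merkel libraries. It rose by 0.66 ± 0.14 from the first to the second libraries (adjusted p = 0.033), and the Merkel libraries overlapped the first.

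Among H2A genes, Hist1h2ap was at 707, 732 and 728 TPM in the first, 1212, 1015 and 1412 in the second and 705, 664 and 912 in the Merkel libraries. Its difference between basal libraries was 0.73 ± 0.14 (adjusted p = 0.022), and its coding sequence is identical to that of the rare Hist1h2ao. The sum of its group of 5 near-identical H2A genes gave 0.71 ± 0.13 (adjusted p = 0.019). Hist2h2aa2, the H2A gene with the highest level, was at 913, 1421 and 880 TPM in the first, 1280, 1641 and 1470 in the second and 1012, 812 and 1138 in the Merkel libraries. The 2 sets of basal libraries overlapped because of number 2, and its difference of 0.48 ± 0.21 did not pass (adjusted p = 0.25), nor did the sum with Hist2h2aa1 (0.46 ± 0.15, adjusted p = 0.12).

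The leading H2B genes were Hist1h2bg and Hist2h2bb. Hist1h2bg was at 739, 944 and 640 TPM in the first, 1195, 1291 and 1209 in the second and 702, 636 and 813 in the Merkel libraries. Hist2h2bb was at 684, 801 and 602 TPM in the first, 1007, 989 and 1084 in the second and 611, 610 and 751 in the Merkel libraries. In both genes the second basal libraries stood above all others, with differences from the first of 0.69 ± 0.16 (adjusted p = 0.042) and 0.57 ± 0.13 (adjusted p = 0.044). Hist1h2bg shares its promoter region, printed above, with the H2A gene Hist1h2ae, which was at 140, 241 and 114 TPM in the first and 237, 326 and 234 in the second libraries and overlapped between them (0.74 ± 0.28, adjusted p = 0.18).

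Of the H3 genes, Hist1h3h was at 492, 626 and 463 TPM in the first, 793, 892 and 834 in the second and 428, 428 and 558 in the Merkel libraries. Hist1h3i was at 538, 775 and 502 TPM in the first, 838, 1035 and 880 in the second and 484, 453 and 588 in the Merkel libraries. Both were highest in the second basal libraries, and Hist1h3h passed (0.68 ± 0.14, adjusted p = 0.027) while Hist1h3i did not (0.62 ± 0.19, adjusted p = 0.098). With Hist1h3g they form a group of near-identical genes whose sum gave 0.66 ± 0.17 (adjusted p = 0.065).

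Among linker histones, Hist1h1a and Hist1h1b passed, at 0.69 ± 0.15 and 0.68 ± 0.14 (adjusted p = 0.035 and 0.031). The testis gene Hist1h1t also passed (0.86 ± 0.19, adjusted p = 0.038), from 0.91, 0.39 and 0.60 TPM in the first and 2.55, 1.65 and 1.70 in the second libraries, and was tested only through the second. Hist1h1e, the most abundant of them, was at 718, 558 and 634 TPM in the first, 1018, 676 and 1022 in the second and 701, 550 and 801 in the Merkel libraries. Hist1h1d was at 464, 480 and 390 TPM in the first, 704, 515 and 657 in the second and 381, 356 and 438 in the Merkel libraries. In both, the second basal library of number 2 lay closest to the first libraries, and neither difference passed (0.49 ± 0.19 and 0.48 ± 0.15, adjusted p = 0.20 and 0.11). Hist1h1c had the smallest difference of the linker histones, 0.29 ± 0.15 (adjusted p = 0.34).

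One member differed more than the rest. Hist3h2ba, an H2B gene of the small Hist3 cluster, was at 20.8, 38.1 and 26.2 TPM in the first and 66.1, 74.2 and 81.1 in the second basal libraries. Its log2 fold change of 1.39 ± 0.21 (adjusted p = 0.0099) made it the only member called, a share of 1.61% where 0.675% of all tested genes were called higher; no member was called lower, where 3.67% were. Its neighbour Hist3h2a, an H2A gene on the same strand, was at 34.4, 37.7 and 32.9 TPM in the first and 64.0, 62.0 and 69.7 in the second libraries, also without overlap (0.88 ± 0.09, adjusted p = 0.0036). The call of Hist3h2ba was lost without the second basal library of number 3 (1.32, adjusted p = 0.057) or the first of number 3 (1.35, adjusted p = 0.059).

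The number of members that passed depended on single libraries, while the median did not. It was 2 without the second library of number 3, 2 without the first of number 3, 5 without the second of number 1, 6 without the first of number 1, 27 without the second and 40 without the first library of number 2, and the median log2 fold change stayed between 0.57 and 0.74. With the sample number as a block 51 members passed, without a filter on low values 4 did, and under the alternative scalings the median was 0.61 to 0.69.

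**Figure D3:**
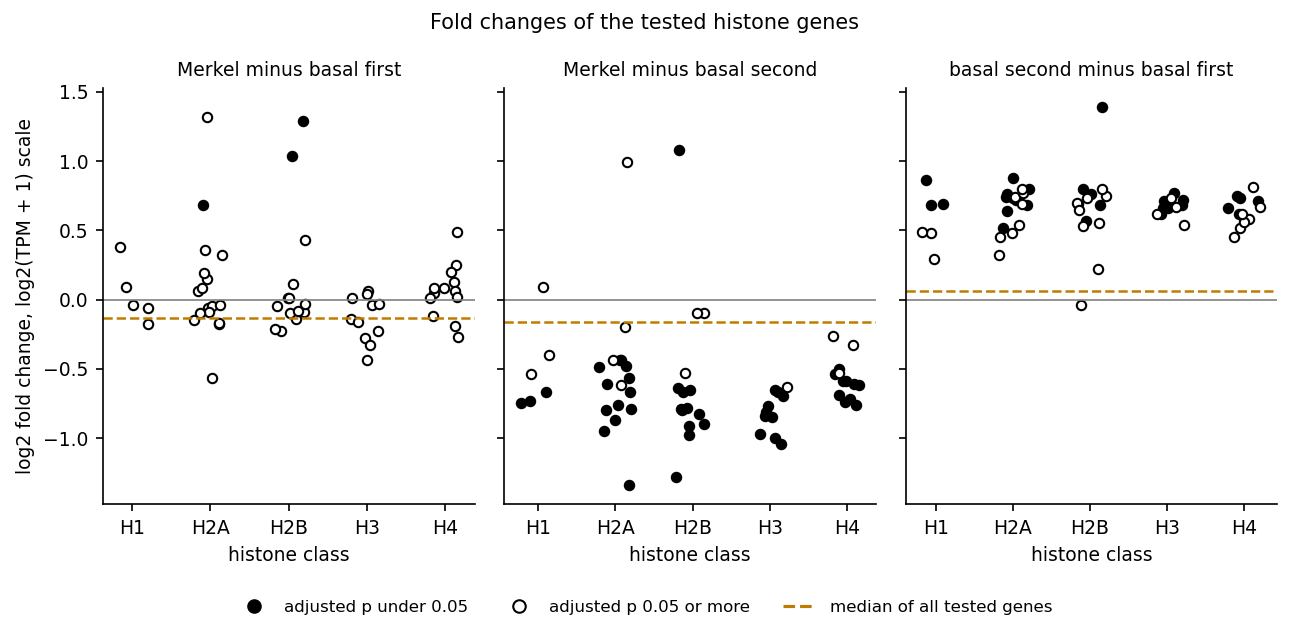
Each point is the log2 fold change of one tested member on the log2(TPM + 1) scale, by histone class, in 3 comparisons, filled where the adjusted p is under 0.05, with a dashed line at the median of all tested genes. Points lie around 0 for Merkel against first basal libraries (median -0.03), below 0 for Merkel against second basal libraries (median -0.67) and above 0 for second against first basal libraries (median 0.68).

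Against the first basal libraries, Merkel cells held histone mRNA at a similar level. The median log2 fold change of the 60 tested members was -0.03, against -0.13 over all 13870 tested genes, with 29 members above 0 (48.3%, where 38% of all tested genes were) and 31 below. The median was 0.13 with median-ratio scaling, 0.05 with quantile normalization and 0.07 with mitochondrial and small RNA genes removed. No member passed as lower by limma (adjusted p under 0.05), where 25.2% of all tested genes did and 7.24% were called lower, and in no member did all Merkel libraries lie below all first basal libraries, against 34% of all tested genes. In 5 members all Merkel libraries lay above all first basal libraries, a share of 8.33% against 16.2% of all tested genes. The 95% confidence interval lay wholly below 0 in 0 members, wholly above 0 in 4 and within 2-fold in either direction in 52. The members' median differed in sign between numbers, at -0.08, -0.33 and 0.35 for numbers 1 to 3.

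Higher in Merkel cells were 3 members, a share of 5% where 13.3% of all tested genes passed, and 2 of them were called, a share of 3.33% where 7.43% were. Hist3h2ba was at 63.7, 62.7 and 81.5 TPM in Merkel replicates 1 to 3, above all first and overlapping the second basal libraries (1.29 ± 0.21, adjusted p = 0.0019). Hist3h2a was at 52.5, 51.1 and 67.3 TPM there, again above all first basal libraries (0.68 ± 0.14, adjusted p = 0.0052). Against the second basal libraries neither passed (-0.10 ± 0.14 and -0.20 ± 0.14, adjusted p = 0.63 and 0.28). Markers of other cells moved with this comparison. Called higher in Merkel than in the first basal libraries were 7 of 7 melanocyte and 5 of 7 tested fibroblast markers (list medians 2.39 and 1.78). Called lower were 6 of 7 Langerhans cell and macrophage markers (list median -2.94). The melanocyte and fibroblast sums, like Hist3h2ba and Hist3h2a, were lower in every first basal library than in the other groups. The Langerhans cell and macrophage sum was higher in every first basal library than in the other groups. The part of these cells in the result was not tested. An annotated miRNA on the opposite strand of Hist3h2a has its own row, at 0 to 323 TPM, and reads of overlapping genes may have been divided between them.

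The other of the 3 was Hist2h2be, an H2B variant known from olfactory sensory neurons. It was at 4.09, 4.98 and 5.25 TPM in Merkel replicates 1 to 3, at 1.87, 1.73 and 1.80 in the first and at 1.91, 1.68 and 1.58 in the second basal libraries. All Merkel libraries lay above all 6 basal libraries, and the 2 sets of basal libraries overlapped. The difference on the log2 scale was 1.04 ± 0.14 against the first (adjusted p = 0.0006), 1.08 ± 0.14 against the second (adjusted p = 0.00039) and 1.06 ± 0.13 against their average (adjusted p = 0.00033). It was thus the only member called higher in Merkel cells in all 3 comparisons. Without Merkel replicate 3 the fold change was 0.98 against the first libraries and 1.00 against the average, and the call was lost in both (adjusted p = 0.0071 and 0.0038). Its annotated transcript of 2620 bases held no stem-loop. Whether Hist2h2be is made in S phase was not tested.

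Hist2h2be and Hist2h2ac are transcribed away from each other from starts 239 bases apart, in the region printed above. Hist2h2ac, an H2A gene, was at 83.8, 105 and 111 TPM in Merkel, 124, 112 and 99.4 in the first and 168, 121 and 172 in the second basal libraries. It was lower in Merkel cells than in the second basal libraries (-0.61 ± 0.17, adjusted p = 0.019) and did not pass against the first (-0.17 ± 0.15, adjusted p = 0.42). The pair therefore differed in direction: Hist2h2be was higher and Hist2h2ac lower against the second basal libraries.

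**Figure D4:**
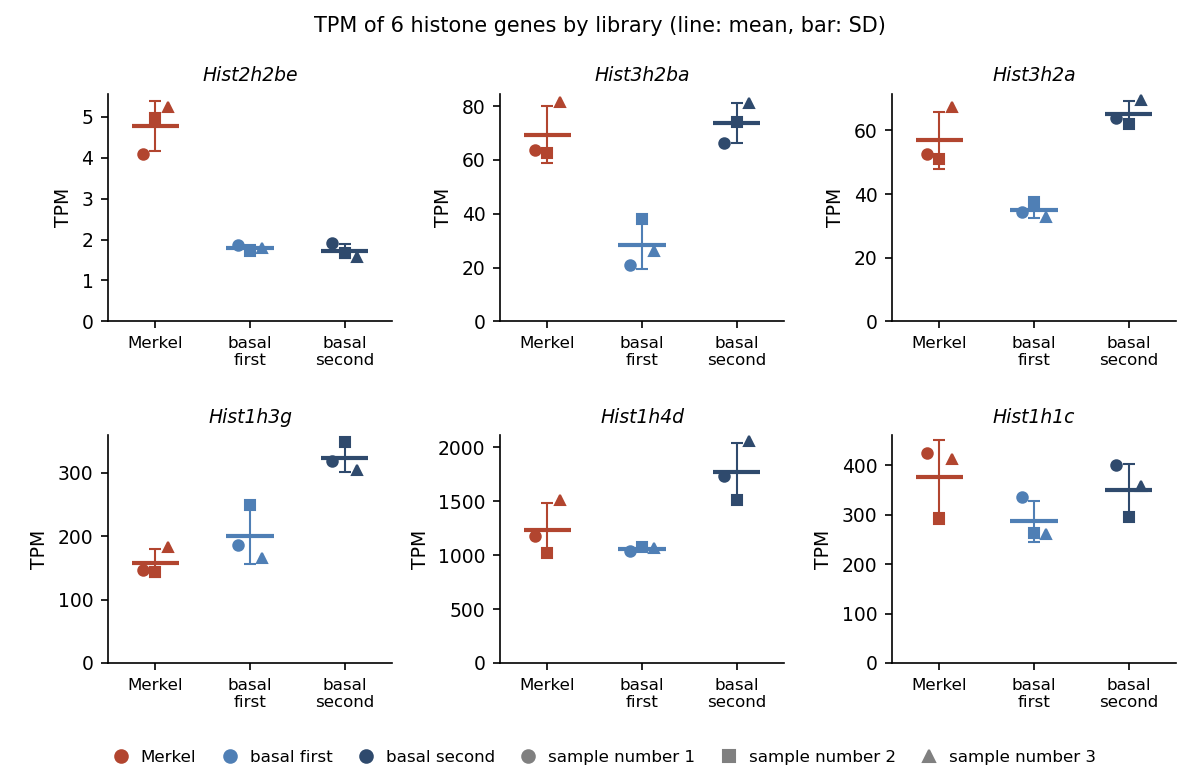
Points give the TPM of 6 histone genes in each library, with the shape for the sample number, a line at the group mean and a bar of 1 SD (n = 3 libraries a group). Hist2h2be is high in Merkel libraries only, Hist3h2ba and Hist3h2a are low in first basal libraries only, Hist1h3g and Hist1h4d are high in the second basal libraries, and the groups of Hist1h1c overlap.

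Against the second basal libraries, Merkel cells held less histone mRNA. The median log2 fold change of the 62 tested members was -0.67, a ratio of 0.630, against -0.16 over all 13724 tested genes, and it was -0.44 to -0.59 under the alternative scalings. 47 members passed as lower, a share of 75.8% where 28.2% of all tested genes did, and 59 of 62 lay below 0, where 63.6% of all tested genes did. Hist2h2be alone passed as higher, where 12.5% did, and was called, where 6.5% were. In 46 members all Merkel libraries lay below all second basal libraries, a share of 74.2% against 37.3% of all tested genes. By class 3 of 6 H1, 13 of 17 H2A, 11 of 15 H2B, 10 of 11 H3 and 10 of 13 H4 genes passed as lower, with class medians from -0.59 (H4) to -0.81 (H3). Every library left out in turn gave between 32 and 50 members.

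Most of these differences were under 2-fold, and 4 members were called lower, a share of 6.45% where 5.2% of all tested genes were. Hist1h3g was at 147, 143 and 183 TPM in Merkel and 319, 349 and 305 in the second basal libraries (log2 fold change -1.04 ± 0.14, adjusted p = 0.00043). Hist1h3c was at 260, 256 and 311 TPM in Merkel and 497, 632 and 535 in the second basal libraries, just past 2-fold (adjusted p = 0.00075). Both are H3 genes whose Merkel libraries lay below all basal libraries of the second set, and Hist1h3g overlapped the first set (185, 250 and 166 TPM). Hist1h3g is near-identical to Hist1h3h and Hist1h3i, and the sum of the 3 was lower by less than 2-fold and not called (-0.88 ± 0.17, adjusted p = 0.0031).

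The other two calls rest on uneven values. Hist1h2ah, an H2A gene, was at 126, 150 and 255 TPM in Merkel and 252, 844 and 368 in the second basal libraries, high in number 2 (-1.34 ± 0.41, adjusted p = 0.027), and was not called without that library (-0.85, adjusted p = 0.035). Hist1h2bq, an H2B gene tested only through its basal libraries, was at 0.46, 0.34 and 0.55 TPM in Merkel, 0.99, 3.25 and 2.24 in the first and 1.30, 6.05 and 1.66 in the second basal libraries (-1.28 ± 0.36, adjusted p = 0.019). Its coding sequence is identical to that of Hist1h2br, and the sum of its group of 4 near-identical H2B genes was not called (-0.61 ± 0.18, adjusted p = 0.026). The number called was 1 without Merkel replicate 1 or 2, 7 without Merkel replicate 3 or the second basal library of number 1, 2 without that of number 2, and 1 under median-ratio scaling or quantile normalization.

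Of the 2 most abundant members of each class, 8 of 10 were lower in Merkel cells than in the second basal libraries by 0.57 to 0.85 on the log2 scale, among them Hist1h3i (-0.85 ± 0.16, adjusted p = 0.0026), Hist1h3h (-0.84 ± 0.16, adjusted p = 0.0024), Hist1h2bg (-0.79 ± 0.15, adjusted p = 0.0032) and Hist1h1d (-0.67 ± 0.16, adjusted p = 0.010). Hist1h4d (-0.53 ± 0.20, adjusted p = 0.062) and Hist1h1e (-0.40 ± 0.21, adjusted p = 0.17) did not pass. The smallest of the 8, Hist2h2aa2 at -0.57 ± 0.18 (adjusted p = 0.032), stood beside 0.99 ± 0.85 for its copy Hist2h2aa1 (adjusted p = 0.38), and the sum of the pair did not pass (-0.29 ± 0.19, adjusted p = 0.27). Nearest to 0 were Hist1h1c, at 424, 291 and 413 TPM in Merkel and 399, 295 and 358 in the second basal libraries (0.09 ± 0.19, adjusted p = 0.73), and Hist1h2bc and Hist3h2ba, both at -0.10. Hist1h2bc was at 292, 239 and 332 TPM in Merkel and 262, 338 and 323 in the second basal libraries, and for both members the libraries overlapped.

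Set against the average of the first and second basal libraries of each number, the comparison the study names, the members stood between these results. The median log2 fold change was -0.36, against -0.15 over all 13822 tested genes (-0.17 against 0.02 with median-ratio scaling), and 55 of 62 members lay below 0, where 64.2% of all tested genes did. 17 members passed as lower, a share of 27.4%, near the 28.5% of all tested genes, and 2, Hist2h2be and Hist3h2ba, passed as higher, where 13.2% of all tested genes did. By class 7 of 11 H3, 2 of 6 H1, 3 of 17 H2A, 3 of 15 H2B and 2 of 13 H4 genes passed as lower. The near-identical Hist1h3g, Hist1h3h and Hist1h3i were counted singly among the 7. Of the H3 genes, Hist2h3b (-0.71 ± 0.18, adjusted p = 0.012), Hist1h3g (-0.69 ± 0.15, adjusted p = 0.0066) and Hist1h3c (-0.64 ± 0.17, adjusted p = 0.017) were the furthest from 0. The summed group of Hist2h3b gave -0.61 ± 0.16 (adjusted p = 0.012) and that of Hist1h3g -0.55 ± 0.18 (adjusted p = 0.034). Hist2h2be was called higher, where 6.79% of all tested genes were, and Hist1h2bq lower (-1.17 ± 0.29, adjusted p = 0.012), where 5.27% were. Hist1h2bq, the only member called lower, was below 1 TPM in every Merkel library and tested only through the basal values, and its summed group did not pass (-0.28 ± 0.20, adjusted p = 0.31). With the sample number as a block 29 members passed as lower, with the 6 basal libraries entered separately 3, with median-ratio scaling 5, and with 1 value left out between 4 (without Merkel replicate 1) and 25 (without Merkel replicate 3): 5 without Merkel replicate 2, 9 without basal number 1 and 6 without basal number 2 or 3.

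Genes of histone mRNA production are set beside the members from lists chosen for their function. The counts below are to be read against all tested genes: 28.5% passed as lower against the basal average (5.27% called, median -0.15), 25.2% against the first and 28.2% against the second basal libraries (medians -0.13 and -0.16), and 3.37% passed as higher from the first to the second set of basal libraries (median 0.06). Of 16 tested genes of histone gene transcription, 9 passed as lower in Merkel cells against the basal average, with a list median of -0.49. Among them were the histone locus body organiser Npat (8.54, 6.50 and 8.48 TPM in Merkel, -0.51, adjusted p = 0.021) and Ccna2, an S phase and G2 cyclin (-0.84, adjusted p = 0.0013). Against the second basal libraries 12 passed as lower, and Ccna2 was called (-1.13, adjusted p = 0.00024). From the first to the second basal libraries 2 passed as higher, Ccna2 (0.58, adjusted p = 0.015) and the kinase gene Cdk2 (0.44, adjusted p = 0.037).

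Of 19 tested genes of histone pre-mRNA processing and decay, 5 passed as lower in Merkel cells against the basal average, a share below that of all tested genes, with a list median of -0.20. Slbp, the stem-loop binding protein, was at 25.1, 25.2 and 32.8 TPM in Merkel, 37.8, 42.9 and 36.5 in the first and 46.5, 44.9 and 49.9 in the second basal libraries. Its Merkel libraries lay below all basal libraries (-0.62, adjusted p = 0.0051), and the second basal libraries lay above the first without passing (0.27, adjusted p = 0.17). The most abundant gene of the list, Snrpb, which encodes a shared core protein of splicing and U7 particles, did not pass (-0.20, adjusted p = 0.38). U7 RNA itself (Rnu7) was listed at 0 in all 9 libraries. Between the 2 sets of basal libraries 0 of 20 tested genes passed by limma, and 3 were higher in the second at an unadjusted p under 0.05.

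Histone chaperones passed as lower in Merkel cells in 10 of 21 genes (list median -0.35 against the basal average), and 1, the centromeric chaperone gene Hjurp, was called (-1.17, adjusted p = 0.00016). From the first to the second basal libraries 4 passed as higher: Hjurp (0.51, adjusted p = 0.045), 2 of the subunits of the replication-coupled assembly factor CAF-1, Chaf1a (0.45, adjusted p = 0.023) and Chaf1b (0.54, adjusted p = 0.013), and the H3-H4 and H1 carrier Nasp (0.40, adjusted p = 0.035). Set, the most abundant of the list, was at 332, 309 and 366 TPM in Merkel and 330 to 398 in basal libraries and did not pass (-0.11, adjusted p = 0.54).

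Replication-independent variants, which are made with poly(A) tails and not only in S phase, had a list median of 0.03 for Merkel cells against the basal average, where 2 of 12 passed as lower. They were H2afx (-0.53, adjusted p = 0.010), whose mRNA is also known to be made with a stem-loop end in dividing cells, and the centromeric Cenpa (-0.79, adjusted p = 0.0093). H3f3a, which encodes H3.3 and was the most abundant of the list, was at 1291, 1157 and 1443 TPM in Merkel and 887 to 1204 in basal libraries, with a difference of 0.39 (adjusted p = 0.097). From the first to the second basal libraries H2afx rose by 0.70 (adjusted p = 0.010) and H2afy2, a macroH2A, by 0.66 (adjusted p = 0.0073).

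Genes of the cell cycle are given for the same comparisons. Of 36 genes of S phase and DNA replication, 30 passed as lower against the basal average (median -0.54), 12 against the first (median -0.37) and 32 against the second basal libraries (median -0.75). Between the 2 sets of basal libraries 4 passed as higher in the second (median 0.40). At an unadjusted p under 0.05 by limma, 33 were higher there and 0 lower. Of 22 mitosis genes, 22, 18 and 22 passed as lower (medians -0.89, -0.63 and -1.22). From the first to the second basal libraries 18 passed as higher (median 0.61), and 22 were higher at an unadjusted p under 0.05 by limma. Pcna, the replication clamp and most abundant gene of the S phase list, was at 92.0, 84.1 and 104 TPM in Merkel and 107 to 139 in basal libraries (-0.36, adjusted p = 0.036). Against the first basal libraries the proliferation marker Mki67 was called lower (-1.39, adjusted p = 0.00024), where no histone member passed as lower.

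Summed levels per library put these lists side by side. Relative to the mean of the first basal libraries, the histone sum was 0.953, 0.898 and 1.16 in Merkel replicates 1 to 3, the S phase sum 0.765, 0.689 and 0.898, and the mitosis sum 0.599, 0.569 and 0.754. The histone sum of Merkel libraries overlapped the first basal libraries (0.973, 1.13 and 0.900), and the S phase and mitosis sums lay below them. The ratio of the histone sum to the S phase sum was 23.6, 24.7 and 24.3 in Merkel, 19.5, 20.1 and 17.1 in the first and 22.9, 21.5 and 23.2 in the second basal libraries, so that the Merkel libraries had the highest ratios and the first basal libraries the lowest, without overlap. No test was made of these sums, since the lists were put together with results of these data known.

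**Figure D5:**
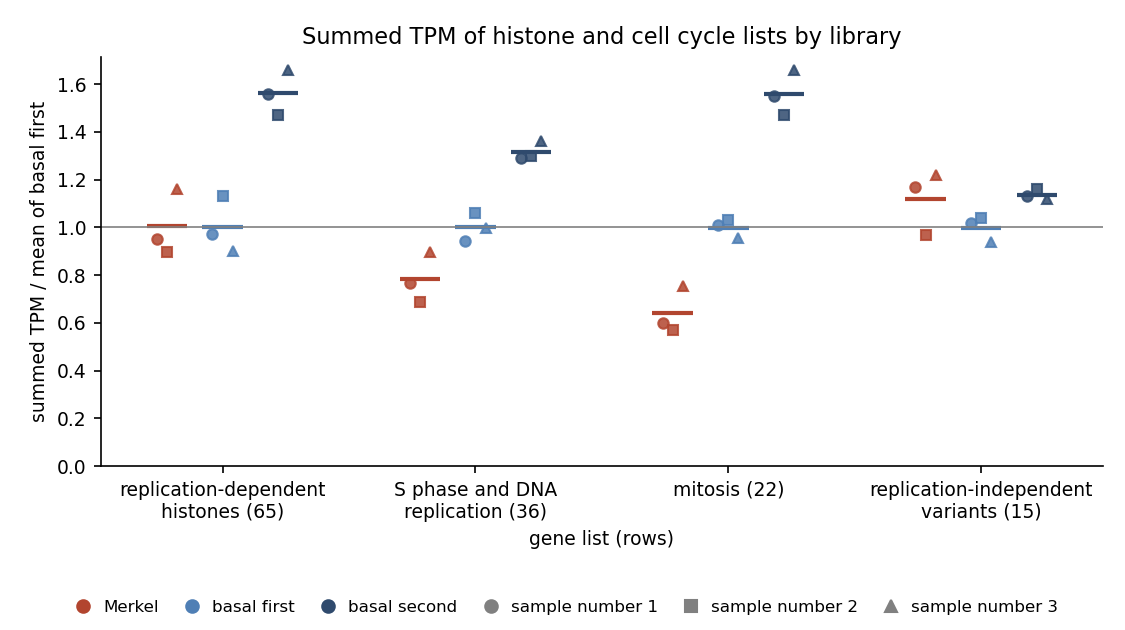
Points give the summed TPM of 4 gene lists in each library divided by the mean of the first basal libraries, with the shape for the sample number and a line at the group mean. Merkel libraries lie around 1 for the histones (0.898 to 1.16), at 0.689 to 0.898 for S phase genes and at 0.569 to 0.754 for mitosis genes, and the second basal libraries lie above 1 in all 4 lists.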

How the data were processed

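Per the labels' protocols, a TruSeq Stranded Total RNA kit was used and sequencing was paired-end. The submitters' processing notes name Trimmomatic, STAR, RSEM and the build mm10; the annotation and the strand setting used are not stated there. The authors deposited one table of gene TPM for 9 libraries, which keeps no depth. Values were used as log2(TPM + 1) with limma 3.58.1 in R 4.3.3 (variance trend, two-sided, Benjamini-Hochberg), on genes at 1 TPM or more in at least 3 of 6 values. Calls required both a 2-fold difference and an adjusted p below 0.05. Fold changes on this scale understate low genes. For the basal average, log2 values of the first and second library of each number were averaged. Same-numbered libraries deviated together in all 9 pairs of groups and numbers (correlations 0.141 to 0.526 over 14386 genes). Libraries of different numbers had correlations of -0.509 to 0.183, so the highest of them was above the lowest same-numbered value. These values were not tested. Because of the same-numbered values, the numbers were used to pair libraries in the basal average and in the repeat with a block. The main fits held no term for the number, so their p-values are unpaired. The fit was tested on simulated data. Members and lists were chosen with earlier results of these data known. Full values are given for the 2 most abundant members of each class, up to 3 called members per comparison and direction, and from other lists the most abundant and up to 3 called genes; others were chosen after their values were seen. Of 49672 rows, 49326 matched a GENCODE M21 symbol. Overlapping genes are uncertain: 24 members overlap another row, 21 of them on the opposite strand. Python 3.11.15, pandas 2.3.3 and matplotlib 3.10.9 were used.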

Additional observations from a re-analysis of the deposited data

How the results depend on the processing

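Each comparison was repeated with a pseudocount of 0.1, without a filter on low values, with a filter at 5 TPM, with median-ratio scaling, with quantile normalization, without mitochondrial and small RNA genes, with a block for the sample number, leaving out each library in turn and, added after seeing the data, with near-identical members summed. None of the 27 log2 fold changes of named members that passed, followed through these settings, changed sign. With the replicate block 29 members passed as lower against the basal average and 51 as higher in the second against the first basal libraries, and the block changed no other call. Members called higher and lower against the basal average were 1 and 1; they were 0 and 0 with a filter at 5 TPM, 0 were called lower with near-identical members summed, and both ranged from 0 to 1 with a value left out. Members passing as lower there were 17, and 10 without a filter, 5 with median-ratio scaling, 3 with the 6 basal libraries entered separately and 4 to 25 with a value left out. The median of -0.36 ranged from -0.46 to -0.29 with a value left out.

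Against the first basal libraries 2 members were called higher, 1 with a filter at 5 TPM and 1 to 2 with a library left out; 0 were called lower, and 1 without mitochondrial and small RNA genes. Passing as higher were 3 members, 9 with median-ratio scaling, 6 with quantile normalization, 7 without mitochondrial and small RNA genes and 3 to 4 with a library left out. Against the second, 1 was called higher and 0 with a filter at 5 TPM; 4 were called lower, 2 without a filter, without mitochondrial and small RNA genes or with copies summed, 1 with median-ratio scaling or quantile normalization, and 1 to 7 with a library left out. The median of -0.67 was -0.44 with median-ratio scaling, -0.56 with quantile normalization and -0.78 to -0.60 with a library left out.

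Between basal libraries 1 member was called higher, 2 with a pseudocount of 0.1 or without mitochondrial and small RNA genes, 0 without a filter and 0 to 5 with a library left out. Passing as higher were 31, 4 without a filter, 20 with median-ratio scaling and 2 to 40 with a library left out. The ratio of summed TPM was 0.781 for Merkel against the basal average, 0.894 with median-ratio scaling and 0.721 to 0.821 with a value left out, and 0.640 against the second basal libraries, 0.745 with median-ratio scaling and 0.591 to 0.673 with a library left out. Median-ratio scaling moved the median of all genes from -0.16 to 0.04 against the second basal libraries. The cause of the other changes was not tested. Depth is unknown, so the precision of members below 10 TPM cannot be given.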

Other observations

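Annotated miRNA genes lie on the opposite strand of 17 H2A members and have rows of their own. Of these 17 rows, 4 were at 0 in every library, 8 held the same 9 values as each other (0 to 9.56 TPM), and 4 had a mean of 100 TPM or more. The row opposite Hist1h2an was at 635, 881 and 240 TPM in Merkel replicates 1 to 3, 591, 0 and 437 in the first and 935, 0 and 432 in the second basal libraries, so that both basal libraries of number 2 were listed at 0. The row opposite Hist1h2ak was at 293, 613 and 658 TPM in Merkel and at 0 in 4 of the 6 basal libraries.

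Within groups, the SD of the 57 members with a mean of 10 TPM or more had a median of 14.4% of the mean in Merkel, 15.8% in the first and 11.5% in the second basal libraries. Sums of near-identical H3 genes of the Hist2 cluster (Hist2h3b, Hist2h3c1 and Hist2h3c2) were 477, 471 and 631 TPM in Merkel, 620, 722 and 606 in the first and 945, 956 and 1030 in the second basal libraries, and passed between basal libraries (0.59 ± 0.11, adjusted p = 0.021) where Hist2h3b (adjusted p = 0.17) and Hist2h3c2 (adjusted p = 0.37) alone did not.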
